A study of Homo sapiens with 6 samples.

Results

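MROH2A and 8 genes around it on the long arm of human chromosome 2 were followed in cells with and without an edited PARP1 gene. The members were the rows of the deposited gene table named DGKD, USP40, UGT1A10, UGT1A6, UGT1A1, MROH2A, HJURP, TRPM8 and SPP2, given in the order of their start, 9 of the 62753 genes listed. MROH2A was chosen by its FPKM values in these same libraries, that is, by its difference between the groups, so its values are a description with no test. The neighbours were picked from the genes around it, not as an unbroken run, and with earlier results of these data known. RNA was sequenced in 3 sgPARP1 libraries, made from cells labelled HepG2 in which PARP1 had been knocked out with CRISPR-Cas9, and in 3 WT libraries, made from HepG2 cells labelled as wild type. HepG2 is a line from a human liver carcinoma, and PARP1 encodes an enzyme that binds DNA breaks and attaches ADP-ribose chains to proteins. The sources used here do not say whether the sgPARP1 cells are 1 clone or a pool, or whether replicates were grown separately, so the spread behind each p-value is that among these libraries and may be technical alone.

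The 9 genes lie within 723 kb, with other genes between them, and belong to several families. MROH2A belongs to the maestro family of proteins built of HEAT-like repeats, whose function is little described. The UGT1A genes encode UDP-glucuronosyltransferases, the enzymes of liver and gut that attach glucuronic acid to bilirubin, hormones and drugs so that these can be excreted. HJURP is the chaperone that places the histone variant CENP-A at centromeres after mitosis. DGKD is a kinase that turns diacylglycerol into phosphatidic acid, USP40 is a ubiquitin-specific protease, TRPM8 is the ion channel that senses cold and menthol, and SPP2 is a phosphoprotein that the liver secretes.

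Levels are in FPKM, that is, reads corrected for the length of the gene and the size of the library, and in whole reads worked back from it, with 15383400 to 17197118 reads per sgPARP1 library and 14842498 to 17305129 per WT library. The targeted gene PARP1 stood at 4.31, 4.23 and 4.39 FPKM in sgPARP1 and at 31.8, 31.5 and 31.5 FPKM in WT. The table gives no or next to no reads to the defining genes of hepatocytes, although an exact 0 in it may not mean absence. Of 13 hepatocyte markers, ALB, AFP, APOB, FGB, SERPINA1 and TTR were listed at 0 in all 6 libraries, and the 13 together reached 0.0129 to 0.134 FPKM in sgPARP1 and 0.0375 to 0.370 FPKM in WT. Of 6 fibroblast markers 4 had reads, with COL1A2 and PDGFRA at 0, and their summed level, mostly COL1A1, was 18.3 to 20.8 FPKM in sgPARP1 and 18.1 to 19.9 FPKM in WT. Within that sum DCN averaged 0.296 FPKM in sgPARP1 and 1.07 FPKM in WT, and PDGFRB averaged 3.43 FPKM in sgPARP1 and 2.67 FPKM in WT, both without overlap, of which limma called DCN lower (adjusted p = 0.00877) and did not call PDGFRB (adjusted p = 0.111). DCN entered the fit only through WT. Of 4 endothelial markers 3 had reads, with KDR at 0 and sums of 0.212 to 0.267 FPKM in sgPARP1 and 0.274 to 0.386 FPKM in WT, and of 5 blood markers 3 had reads, with CD3E at 0 and sums of 0.118 to 0.486 FPKM in sgPARP1 and 0.105 to 0.488 FPKM in WT. The part of these differences from the label in the results below was not tested.

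MROH2A (ENSG00000185038) spans 233775679 to 233833423 on the plus strand of chromosome 2 in hg38, and the GENCODE release 29 annotation gives it up to 42 exons. It lies 2378 bases past the common end of the UGT1A genes, on their strand. At its other end it meets HJURP (ENSG00000123485, minus strand, 233833416 to 233854566), so that both genes run towards each other and share 8 bases. In the annotation these 8 bases belong to 1 HJURP transcript marked for nonsense-mediated decay, and the coding transcripts of HJURP end 3277 bases from MROH2A. RefSeq (GRCh38.p14) gives MROH2A 2 start sites and HJURP 1, and the 300 bases around each, from 250 before to 50 after, are shown because these are the neighbours whose levels were both higher in sgPARP1. Capitals mark each match on either strand to the CCAAT box (CCAAT), the GC box (GGGCGG), the AP-1 motif (TGAGTCA), the cell cycle homology element (TTTGAA) or the TATA box (TATAAA).
MROH2A first start, chr2:233775474-233775773, plus strand: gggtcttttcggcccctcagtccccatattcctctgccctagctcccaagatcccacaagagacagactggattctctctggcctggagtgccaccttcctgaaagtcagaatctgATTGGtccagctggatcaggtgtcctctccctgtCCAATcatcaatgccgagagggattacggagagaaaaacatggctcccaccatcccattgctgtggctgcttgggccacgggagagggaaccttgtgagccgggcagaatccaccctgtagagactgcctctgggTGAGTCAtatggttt
MROH2A second start, chr2:233778080-233778379, plus strand: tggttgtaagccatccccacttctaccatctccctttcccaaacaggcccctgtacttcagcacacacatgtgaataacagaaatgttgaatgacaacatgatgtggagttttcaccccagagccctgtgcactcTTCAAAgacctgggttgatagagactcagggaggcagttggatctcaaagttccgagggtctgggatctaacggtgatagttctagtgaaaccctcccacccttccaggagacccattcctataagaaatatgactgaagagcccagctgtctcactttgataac
HJURP start, chr2:233854486-233854785, minus strand: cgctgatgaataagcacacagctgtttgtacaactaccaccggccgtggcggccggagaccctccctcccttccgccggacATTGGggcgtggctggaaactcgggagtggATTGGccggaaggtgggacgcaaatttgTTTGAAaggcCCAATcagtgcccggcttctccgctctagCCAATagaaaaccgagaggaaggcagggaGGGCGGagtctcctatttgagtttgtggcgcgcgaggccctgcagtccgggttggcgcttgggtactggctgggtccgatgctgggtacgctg

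The 3 promoters held different sets of these motifs. The first MROH2A promoter held 2 matches to CCAAT and 1 to TGAGTCA, the second held 1 to TTTGAA, and the HJURP promoter held 4 to CCAAT, 1 to TTTGAA and 1 to GGGCGG. Among all 35116 RefSeq promoters of this length, 34.6% held CCAAT, 45.0% GGGCGG, 15.2% TTTGAA, 11.5% TATAAA and 4.95% TGAGTCA on either strand. None of these matches overlaps another, and no TATAAA was found in the 3 windows. The MROH2A promoters had 5 and 2 CpG dinucleotides, the HJURP promoter 22, and the median promoter 14. Which start of MROH2A the reads come from cannot be read from values per gene.

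MROH2A was nearly silent in WT and present at a modest level in sgPARP1. It had 2.41, 2.45 and 3.14 FPKM in the 3 sgPARP1 libraries, against 0.172, 0.141 and 0.151 FPKM in the 3 WT libraries. All sgPARP1 values lay far above all WT values, and sgPARP1 replicate 3 stood above the other 2 libraries of its group. These levels rest on 216, 216 and 310 reads in sgPARP1 and on 17, 14 and 13 reads in WT. The means were 2.66 ± 0.412 FPKM in sgPARP1 and 0.155 ± 0.0156 FPKM in WT (SD, n = 3 each), a ratio of 17.2. Pooled over the libraries of a group, 742 reads in sgPARP1 and 44 in WT gave a ratio of read rates of 17.3, with an exact 95% interval of 12.7 to 24.0 (Clopper-Pearson, counting error only).

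The size of the change on a log2 scale depended on the scale, because WT was so low. The log2 fold change of MROH2A was 1.66 with a standard error of 0.10 on the log2(FPKM + 1) scale used throughout, and 2.27 and 3.43 with pseudocounts of 0.5 and 0.1. It was 4.06 on recovered reads with limma's voom. With a WT mean under the filter of 0.5 FPKM, MROH2A entered the fit only through its sgPARP1 level. In sgPARP1 34.6% of the 13167 tested genes were at or below its level, and in WT 0.122%. The WT share follows from the filter, which keeps nearly all genes that low in WT out of the tested set.

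Most genes as low as MROH2A in WT remained low in sgPARP1. Of 3106 genes with a WT mean between 0.1 and 0.25 FPKM, 12 had an sgPARP1 mean of at least 1 FPKM, and the median of the 3106 in sgPARP1 was 0.134 FPKM. MROH2A was the highest of the 12, with MIR2116 next at 2.36 FPKM in sgPARP1. As MROH2A was chosen by these same values, its rank is a description and no support. The 12 held 4 protein-coding genes, MROH2A, the olfactory receptor OR51E2, the RNA helicase DDX24 and the kinase CDK7, which were picked out after their values were seen. The rest were the pseudogene GUSBP16 and small RNA genes such as MIR2116, where a few reads over a short length can give such an FPKM. OR51E2 averaged 1.28 FPKM in sgPARP1 and 0.197 FPKM in WT. How reads were counted is not given in the sources used here. Values as low as those of DDX24 and CDK7 in WT may therefore not mean low levels.

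HJURP, the neighbour at the far end of MROH2A, was higher in sgPARP1 by 26.0%. It had 24.8, 24.6 and 24.2 FPKM in sgPARP1, against 18.7, 20.2 and 19.6 FPKM in WT, and the groups did not overlap. The means were 24.5 ± 0.354 FPKM in sgPARP1 and 19.5 ± 0.710 FPKM in WT (SD, n = 3 each), a ratio of 1.26, from 1450 to 1590 reads per sgPARP1 library and 1126 to 1331 per WT library. Its log2 fold change, 0.32, had a standard error of 0.04 and a 95% interval of 0.22 to 0.42 (limma, Benjamini-Hochberg adjusted p = 0.00619 over all tested genes). Over the alternative settings its adjusted p in limma ranged from 0.0021 to 0.0392. An exact two-sided permutation test of HJURP gave p = 0.1, the lowest value possible with 3 libraries a group. MROH2A reached 9.69%, 9.93% and 13.0% of the HJURP level in the sgPARP1 libraries, both per length, and 0.917%, 0.701% and 0.770% in the WT libraries.

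DGKD (ENSG00000077044, plus strand, 233354494 to 233472104) leaned the other way. It had 22.9, 22.2 and 22.3 FPKM in sgPARP1, against 26.8, 23.9 and 25.1 FPKM in WT, with every sgPARP1 library below every WT library. The means were 22.5 ± 0.376 FPKM in sgPARP1 and 25.3 ± 1.45 FPKM in WT (SD, n = 3 each). Its log2 fold change of −0.16 (standard error 0.05, 95% interval −0.28 to −0.04) did not pass limma (adjusted p = 0.102), though voom on recovered reads gave −0.17 (adjusted p = 0.0382).

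USP40 (ENSG00000085982, minus strand, 233475526 to 233566782) lies between DGKD and the UGT1A genes. It had 2.82, 2.53 and 2.64 FPKM in sgPARP1, against 2.68, 2.61 and 2.61 FPKM in WT, and the groups overlapped. Its log2 fold change was 0.01 with a 95% interval of −0.13 to 0.15, which leaves room for only small differences either way (limma, adjusted p = 0.934).

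**Figure D1:**
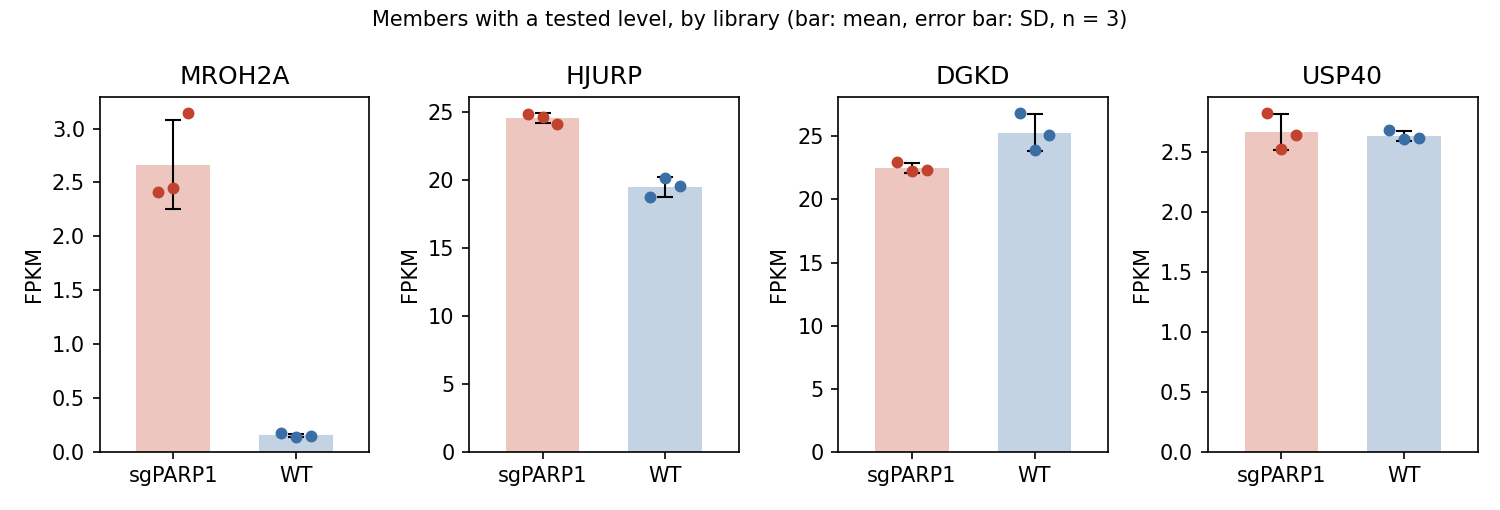
FPKM of MROH2A, HJURP, DGKD and USP40 in each library (points), with the mean (bar) and SD (error bar) of the 3 sgPARP1 and the 3 WT libraries. MROH2A sits at 2.41 to 3.14 FPKM in sgPARP1 and at 0.141 to 0.172 FPKM in WT, HJURP is higher and DGKD lower in sgPARP1 with no overlap, and USP40 overlaps.

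Of the 9 members, 4 passed the filter of a mean of at least 0.5 FPKM, MROH2A only through sgPARP1. Of the 3 others limma called 1, HJURP, which was higher, while 7.96% of all tested genes were called, 3.52% higher and 4.44% lower. MROH2A, chosen by this same difference, is left out of that count. No member was called lower by limma, while voom called DGKD lower, as did an unadjusted p under 0.05. The groups did not overlap in 2 of those 3, HJURP and DGKD, and 31.1% of all tested genes did not overlap. In sgPARP1 the order of levels per length was HJURP, DGKD, then MROH2A and USP40, whose ranges of 2.41 to 3.14 and 2.53 to 2.82 FPKM overlapped. In WT it was DGKD, HJURP, USP40 and, well below, MROH2A.

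The other 5 members had next to no reads in either group. UGT1A10 (ENSG00000242515, 233636448 to 233773300), UGT1A1 (ENSG00000241635, 233760270 to 233773300), the enzyme that conjugates bilirubin, and SPP2 (ENSG00000072080, 234050679 to 234077134), all on the plus strand, were listed at 0 in all 6 libraries. UGT1A6 (ENSG00000167165, plus strand, 233691607 to 233773300), which conjugates small phenols, was listed at 0 in sgPARP1 and had 2 reads, 0.0224 FPKM, in WT replicate 2 alone. TRPM8 (ENSG00000144481, plus strand, 233917373 to 234019522) had 1 read, 0.00732 FPKM, in sgPARP1 replicate 3 alone and was listed at 0 in WT. For TRPM8, 3 reads would correspond to 0.0219 to 0.0251 FPKM, depending on the library, so differences below that level were not detectable at this depth. A value of 0 in the table may not mean silence, since ATG16L1, a gene of autophagy active in most cell types, lies between INPP5D and SAG in the same stretch and also stood at 0 in all 6 libraries.

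The UGT1A genes are read from separate first exons joined to the same 4 later exons, so that most of each transcript is common to all. In GENCODE release 29, 62.0% of the bases of the UGT1A1 transcript, 59.7% of UGT1A6 and 61.6% of UGT1A10 lie after the first exon. The last 30 bases of exon 1 (lower case) and the first 30 of exon 2 (capitals) show where the transcripts become the same. The exon 1 ends lie at 233637377 for UGT1A10, 233693865 for UGT1A6 and 233761151 for UGT1A1, and exon 2 of all 3 starts at 233767034 on the plus strand.
UGT1A10 junction: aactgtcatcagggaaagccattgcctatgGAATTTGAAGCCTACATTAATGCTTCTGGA
UGT1A6 junction: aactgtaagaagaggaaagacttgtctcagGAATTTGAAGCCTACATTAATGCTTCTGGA
UGT1A1 junction: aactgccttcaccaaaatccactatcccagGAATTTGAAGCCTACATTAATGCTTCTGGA

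Over their first exons UGT1A10 and UGT1A6 were identical at 60.9% of aligned bases, UGT1A6 and UGT1A1 at 60.5%, and UGT1A10 and UGT1A1 at 55.0%. How the authors counted reads in the shared exons is not given in the sources used here, so these values cannot tell a silent UGT1A gene from one whose reads went uncounted. Of the 9 UGT1A genes only UGT1A7 had reads in every library, 7, 5 and 9 in sgPARP1 and 3, 6 and 10 in WT, or 0.106, 0.0772 and 0.124 FPKM in sgPARP1 and 0.0413, 0.0825 and 0.158 FPKM in WT. The groups of UGT1A7 overlapped. The genes just before MROH2A on its strand, as far as they were counted, had at most 9 reads in the same sgPARP1 libraries in which MROH2A had 216 to 310.

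**Figure D2:**
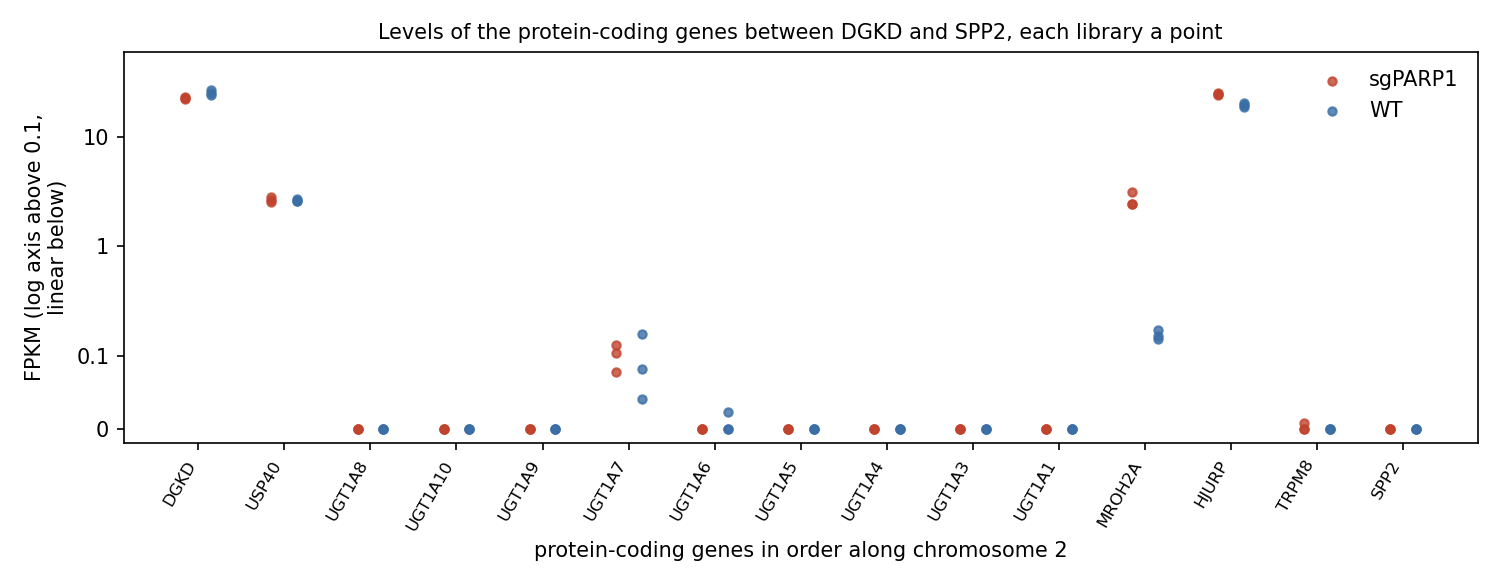
FPKM in each library (points) of the protein-coding genes that start between DGKD and SPP2, both included, in their order along chromosome 2, on an axis that is logarithmic above 0.1 and linear below. The sgPARP1 points stand left of the WT points, and MROH2A averages 2.66 FPKM in sgPARP1 and 0.155 FPKM in WT, while most UGT1A genes, TRPM8 and SPP2 stay at or near 0 in both groups.

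Within 1 Mb of the MROH2A start the table lists 56 genes, of which 15 had a read in some library and 6 were tested. Besides the 4 members these were SNORC, at 0.659 ± 0.116 FPKM in sgPARP1 and 0.662 ± 0.150 FPKM in WT, and NGEF at 0.548 ± 0.128 FPKM in sgPARP1 and 0.586 ± 0.0134 FPKM in WT (SD, n = 3 each). Neither passed limma (adjusted p = 0.997 and 0.859). Leaving MROH2A out, 1 of the other 5 tested genes was called, and that was HJURP. The median log2 fold change of the 6 was 0.00, as over all tested genes.

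Farther out the stretch held calls in both directions. Within 5 Mb, 7 of 53 tested genes were called, or 13.2%, with 4 higher, MROH2A among them, and 3 lower. Chromosome 2 as a whole had 63 of 852 tested genes called, or 7.39%, and the share over all tested genes was 7.96%. MROH2A, chosen by its own difference, is counted in each of these shares and weighs most in that within 5 Mb. Whether this stretch held more calls than others was not tested. SH3BP4, an adaptor of endocytosis that lies 1176 kb past MROH2A, was higher, at 17.2 ± 0.454 FPKM in sgPARP1 and 14.3 ± 0.252 FPKM in WT (SD, n = 3 each; limma, adjusted p = 0.0137). EFHD1, a calcium-binding protein of mitochondria on the other side, was higher too, at 7.39 FPKM in sgPARP1 and 5.54 FPKM in WT (limma, adjusted p = 0.0223). ACKR3, an atypical chemokine receptor, was lower, at 4.37 FPKM in sgPARP1 and 8.62 FPKM in WT, a log2 fold change of −0.85 (limma, adjusted p = 0.00376). The transcription repressor HES6 and the Notch-related receptor DNER were the other called genes, both lower, at log2 fold changes of −0.49 and −0.24.

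**Figure D3:**
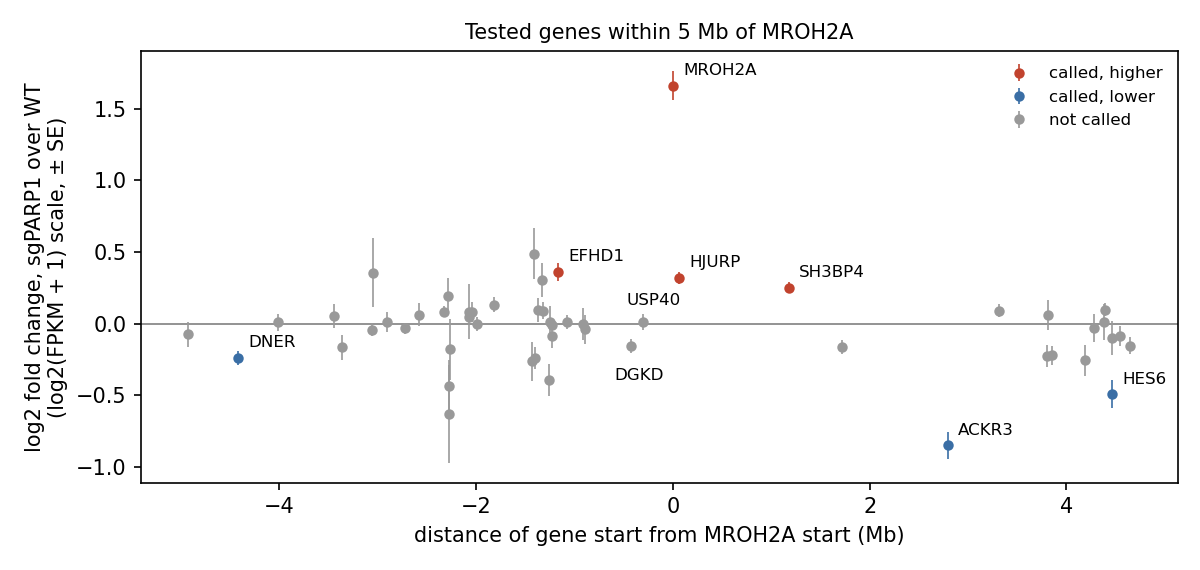
Log2 fold change, sgPARP1 over WT, with its standard error, of the 53 tested genes within 5 Mb of the MROH2A start, against the distance of their start from it. MROH2A stands alone at 1.66, HJURP beside it is at 0.32, and called genes farther away lie on both sides of 0.

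HJURP works with the genes that load and hold CENP-A. Of 18 genes of CENP-A loading and the inner centromere 17 were tested, and 2 rose, HJURP and CENPI, while the other 15 did not pass limma. Of all tested genes 3.52% rose. The 17 include HJURP, around which the list was built, so the counts here hold it too. With HJURP left out, CENPI was the only one called. CENPI, a subunit of the inner kinetochore, averaged 6.15 ± 0.261 FPKM in sgPARP1 and 5.07 ± 0.243 FPKM in WT (SD, n = 3 each; limma, adjusted p = 0.0471). CENPA itself, the histone that HJURP carries, had 19.5, 19.7 and 19.5 FPKM in sgPARP1 and 19.8, 18.0 and 17.3 FPKM in WT and did not pass limma (log2 fold change 0.09, adjusted p = 0.346). OIP5, a member of the Mis18 complex that recruits HJURP, had the largest log2 fold change of the list, 0.33, but varied widely, with 1.08 to 1.79 FPKM in sgPARP1 and 0.530 to 1.54 FPKM in WT, and did not pass limma (adjusted p = 0.373). Neither limma nor voom called any of the 17 lower, nor did an unadjusted p under 0.05. Voom called 2 of them higher, as it did 4.91% of all tested genes, and an unadjusted p under 0.05 marked 4 as higher, as it did 12.1% of all. The sgPARP1 libraries lay above all WT libraries in 5 of the 17, against 16.1% of tested genes, and the median log2 fold change was 0.07, against 0.00 over all tested genes.

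**Figure D4:**
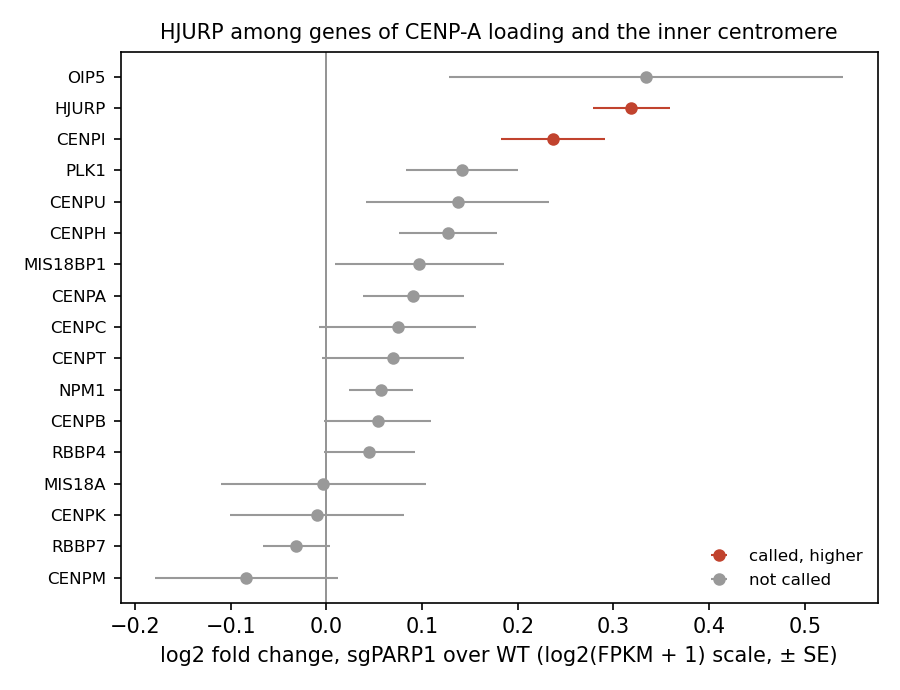
Log2 fold change, sgPARP1 over WT, with its standard error, of the 17 tested genes of CENP-A loading and the inner centromere, with called genes in red. HJURP at 0.32 and CENPI at 0.24 passed limma, and OIP5 at 0.33 did not.

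Few genes of the UGT family had reads, while most genes of UDP-glucuronate supply and of bilirubin handling did. Of 22 genes of the UGT family 18 were listed at 0 in all libraries. The only tested one was UGT8, which makes galactosylceramide and is not a glucuronosyltransferase. It had 6.66, 7.73 and 6.39 FPKM in sgPARP1 and 5.97, 6.19 and 6.66 FPKM in WT (limma, adjusted p = 0.377). Of 15 genes for supply of UDP-glucuronate, bilirubin formation and handling of glucuronides 13 were tested, of which SLCO1B3 entered only through WT. Of the other 12, 2 fell, and of all tested genes 4.44% fell. The export pump ABCC2 fell to 7.82 ± 0.595 FPKM in sgPARP1, against 14.9 ± 0.449 FPKM in WT, and the biliverdin reductase BLVRB to 22.1 ± 1.90 FPKM, against 28.7 ± 1.98 FPKM in WT (SD, n = 3 each; limma, adjusted p = 0.000649 and 0.0337). The uptake carrier SLCO1B3 averaged 0.467 ± 0.0604 FPKM in sgPARP1 and 0.934 ± 0.0913 FPKM in WT (SD, n = 3 each), which rests on 22 to 29 reads per sgPARP1 library and 51 to 62 per WT library. None of the list was called higher by limma or voom, and 1 was higher at an unadjusted p under 0.05. Of the 13 tested, with SLCO1B3 counted, voom called 5 lower, and 6.95% of all tested genes. An unadjusted p under 0.05 marked 5 as lower, and 12.3% of all. The median log2 fold change was −0.06.

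Among 12 regulators of UGT1A genes 7 were tested. CEBPA, a liver transcription factor, fell to 1.70 ± 0.154 FPKM in sgPARP1, against 2.75 ± 0.446 FPKM in WT (SD, n = 3 each; limma, adjusted p = 0.0371). The other 6 did not pass, and limma called 4.44% of all tested genes lower. AHR, the receptor for dioxin-like compounds, had 2.36, 2.43 and 1.85 FPKM in sgPARP1 and 2.79, 3.20 and 3.43 FPKM in WT (limma, adjusted p = 0.070). NR1I2, the xenobiotic receptor PXR, was listed at 0, and HNF4A was listed at 0 in sgPARP1 and had at most 0.0285 FPKM in WT. Neither limma nor voom called a regulator higher, and none was higher at an unadjusted p under 0.05. Voom called 3 of the 7 lower, and 6.95% of all tested genes. An unadjusted p under 0.05 marked 3 as lower, and 12.3% of all. The sgPARP1 values lay below all WT values in 3, against 14.9% of tested genes. Their median log2 fold change was −0.05.

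The diacylglycerol kinases DGKZ, DGKQ and DGKA had values on the same side as DGKD without passing limma. The other tested kinases did not share this, as DGKH averaged 1.26 FPKM in sgPARP1 and 1.05 FPKM in WT, and DGKE 1.54 FPKM in both. Of 10 diacylglycerol kinase genes 6 were tested, and none passed limma in either direction. These 6 include DGKD, around which the list was built, so the counts below hold it too. At an unadjusted p under 0.05, 4 were lower and none higher, where 12.3% of all tested genes were lower. Voom called 2 lower, and 6.95% of all tested genes. The sgPARP1 values lay below all WT values in 4 of the 6, DGKD, DGKZ, DGKQ and DGKA, against 14.9% of tested genes. DGKA had 1.71, 1.87 and 1.66 FPKM in sgPARP1 and 2.32, 2.28 and 2.27 FPKM in WT, a log2 fold change of −0.26 (limma, adjusted p = 0.0529). The median of the 6 was −0.16.

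The families of the remaining members gave little. Of 8 TRPM channel genes only TRPM7 and TRPM2 were tested, and neither passed limma, nor an unadjusted p under 0.05, nor voom. TRPM7 averaged 6.04 ± 0.640 FPKM in sgPARP1 and 6.05 ± 0.469 FPKM in WT (SD, n = 3 each). All 7 genes of USP40 and other ubiquitin-specific proteases were tested and none passed limma. USP48 was higher at an unadjusted p under 0.05 and alone in being called by voom, at 12.4, 12.1 and 11.7 FPKM in sgPARP1 and 9.69, 10.7 and 10.6 FPKM in WT. Of 8 cystatin superfamily genes listed with SPP2, AHSG, FETUB, HRG and KNG1 were at 0 like SPP2, and 2 were tested. Of these, cystatin C (CST3) fell to 21.6 ± 1.70 FPKM in sgPARP1, against 26.4 ± 0.827 FPKM in WT (SD, n = 3 each; limma, adjusted p = 0.0414). Limma called 4.44% of all tested genes lower.

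The relatives of MROH2A did not share its pattern. Of 8 MROH genes MROH2B, MROH5, MROH7 and MROH8 were listed at 0 in all libraries, and MROH9 had 3 reads in WT replicate 3 alone. MROH1 had 4.88, 4.40 and 4.32 FPKM in sgPARP1 and 5.48, 4.83 and 4.65 FPKM in WT and did not pass limma (adjusted p = 0.39). MROH6 had 0.623, 1.37 and 0.400 FPKM in sgPARP1 and 1.66 to 2.43 FPKM in WT, with every sgPARP1 library below WT, and did not pass either (log2 fold change −0.78, standard error 0.20, adjusted p = 0.0669). Voom called MROH6 lower, and so did limma at an unadjusted p under 0.05.

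The genes whose profile over the 6 libraries was closest to that of MROH2A lay on other chromosomes. Likeness was the root mean square difference between profiles of log2(FPKM + 1), each centred on its own mean, over 6 libraries and 13167 tested genes. The profiles were not scaled, so the search mainly returns genes with about the same group difference as MROH2A, by which MROH2A was chosen. Only 852 of the 13167 tested genes lie on chromosome 2, so the positions of the closest genes say little. The list is a description with no test. The 5 closest were the sorting receptor SORL1 at 0.14, the gap junction protein GJA1 at 0.16, the cancer-testis antigen MAGEA1 at 0.16, the secreted glycoprotein OLFM1 at 0.17 and the mitochondrial arginine tRNA gene MT-TR at 0.20, on chromosomes 11, 6, X, 9 and the mitochondrial genome. SORL1 had 3.74, 4.12 and 3.74 FPKM in sgPARP1 and 0.710, 0.697 and 0.742 FPKM in WT. OLFM1 had 7.16, 6.92 and 7.21 FPKM in sgPARP1 and 2.35, 2.06 and 1.98 FPKM in WT. Reads of MAGEA1 can be shared with near-identical relatives and those of MT-TR with the mitochondrial genes beside it, so both values are uncertain.

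**Figure D5:**
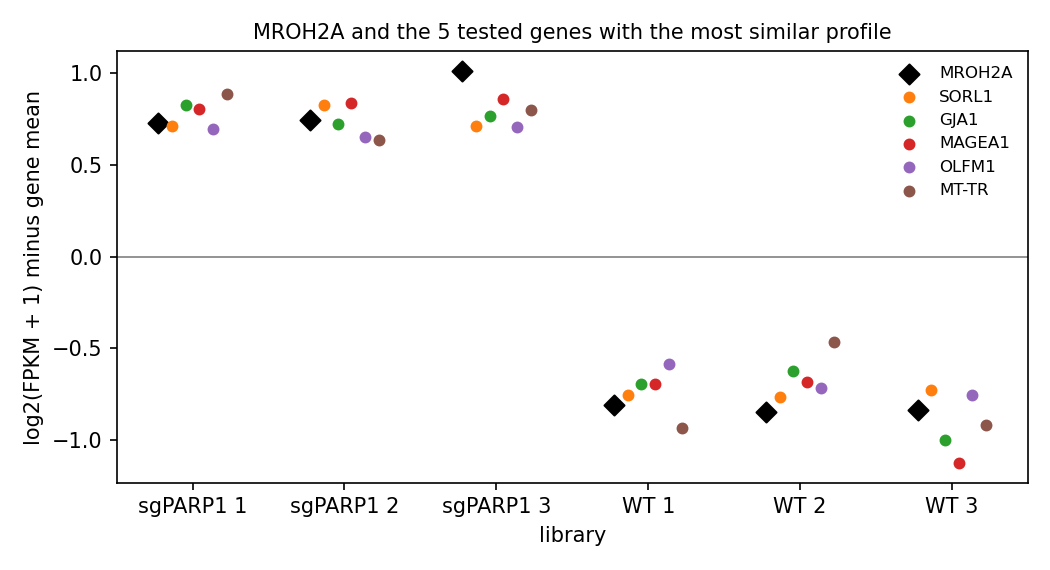
Values of log2(FPKM + 1) minus the gene's own mean in the 6 libraries, for MROH2A (black diamonds) and the 5 tested genes with the most similar profile (circles). All 6 genes are above 0 in every sgPARP1 library and below 0 in every WT library, which follows from the choice by likeness to MROH2A. MROH2A has its own highest value in sgPARP1 replicate 3.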

How the data were processed

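RNA of 3 sgPARP1 and 3 WT libraries, prepared with an mRNA library kit as the labels' protocols say, was grouped by the sample titles. The authors deposited 1 table of FPKM per gene with coordinates and gene lengths, in which 1 line was emptied for this work. Human and mouse assemblies (mm10, GRCm38, hg38) are listed in the submitters' processing notes without a stated use. The coordinates of UGT1A6, MROH2A, HJURP and SPP2 are those of the human GENCODE release 29 annotation. DGKD, USP40, UGT1A10, UGT1A1 and TRPM8 start a few bases away from their place in it, and UGT1A10 and UGT1A1 also end elsewhere. The annotation release behind the deposited values was not determined. Aligner, counter and use of strand: not given in the sources used here, so reads of overlapping genes on opposite strands cannot be told apart.

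Multiplying FPKM by gene length gave steps of 1 size in each library, and dividing by the step gave reads. Every value up to 200 reads, 12918 to 13118 in a library, was whole to within 0.02. The divisor behind the FPKM was 0.998 to 1.01 times the reads in genes. Values were tested as log2(FPKM + 1) where the mean reached 0.5 FPKM, with limma 3.58.1 (R 4.3.3) with a trend and Benjamini-Hochberg adjustment over 13167 genes at 0.05, a call being an adjusted p under 0.05. The fit was tested on simulated data with changes larger than that of HJURP, so the recovery of changes as small was not examined. Fold changes are sgPARP1 over WT, and the pseudocount understates those of low genes. Named genes were the members, tested or highest genes within 1 Mb, the 5 closest profiles and up to 4 called or 2 abundant genes per list. Genes named outside this rule, among them those called within 5 Mb, were chosen after their values were seen. Members and lists were chosen with earlier results of these data known. Same-numbered libraries correlated only weakly and were not paired in the main fit.

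Alternatives tried were no filter, a minimum mean of 5 FPKM, pseudocounts of 0.1 and 0.5, rescaling to TPM, voom on recovered reads, a replicate block, and leaving out each library. Some genes covered by the naming rule or the marker lists are not reported here.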

Additional observations from a re-analysis of the deposited data

How the results depend on the processing

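HJURP stayed higher and past the threshold under every alternative listed, DGKD passed it with voom alone, and the ratio of mean FPKM of MROH2A ranged from 15.7 to 18.3 when single libraries were left out. The count of genes called over the whole table, 1048, was 587 with no filter on low values, where more genes share the adjustment. It was 413 to 654 with 1 library left out, and 1561 with voom on recovered reads. With the replicate block it was 550, and HJURP kept its call (adjusted p = 0.0345). Same-numbered libraries correlated at 0.04, 0.08 and −0.03 after centring within each group. The sgPARP1 replicates 1 and 2 correlated best with the WT library of their own number, and sgPARP1 replicate 3 with WT replicate 1, at 0.06. Correlations this weak cannot tell whether the libraries were paired. Within 1 Mb of MROH2A 2 genes were called. This was 1 with a mean of at least 5 FPKM, where MROH2A and USP40 are not tested, and 7 within 5 Mb. The log2 fold change of USP40, 0.01, ranged from −0.020 without sgPARP1 replicate 1, a turned sign, to 0.038 without sgPARP1 replicate 2, and the cause was not tested. Below about 20 reads, as for MROH2A in WT, counting error limits the values.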
